A study of Mus musculus with 11 samples.

Results

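The genes that build cholesterol and fatty acids, and the genes that control and move their products, were examined in CD4 T cells sorted from the spleens of female C57BL/6 mice. The 35 genes were chosen by name and role, not by a threshold on a measured value. Of these, 34 had a row of their own in a deposited table of 20403 gene symbols that could be tested. The other, Acat2, which makes acetoacetyl-CoA at the head of the sterol pathway, appeared only under a symbol joined with its neighbour Acat3. It was kept out of the tests.

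The RNA of 11 biological samples in 4 groups was hybridized to 1 oligonucleotide array each. WM IMP cells (3 arrays) were CD44hi CD4 T cells, called innate memory phenotype (IMP) cells by the study, gated as CD45.1+ and taken from chimeras in which CD45.1+ wild-type marrow had been given to irradiated CD45.2+ hosts without MHC class II (MHCII-/-). WT IMP cells (2 arrays) were CD44hi cells of unmanipulated wild-type mice. MW naive cells (3 arrays) were CD44lo cells gated as CD45.2+ from the reverse chimeras, MHCII-/- marrow in irradiated wild-type hosts. The labels disagree on the CD45 allele of those hosts, CD45.1 in one field and CD45.2 in another. WT naive cells (3 arrays) were CD44lo cells of unmanipulated wild-type mice. Wild-type mice were 8 weeks old, and chimeras were used 8 weeks after the marrow transfer. The labels describe the MW cells as selected on class II of the thymus alone and the WM cells as selected on class II of blood-forming cells. Cell phenotype, marrow genotype, host genotype, CD45 allele of the sorted cells and selecting cells therefore change together between WM IMP and MW naive. Their parts cannot be told apart, while both groups had the transfer and irradiation. The sort of each group used a further surface marker beside CD44. The labels do not say whether a sample was 1 mouse or a pool.

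Sterols and isoprenoids start from acetyl-CoA, which the mevalonate pathway turns into farnesyl diphosphate, and a second set of enzymes turns that into squalene, lanosterol and cholesterol. The transcription factors SREBP-1 and SREBP-2 switch on most of these genes when the sterol content of the endoplasmic reticulum is low, and the Insig proteins hold them back when it is high. Oxysterols act through the LXR receptors, which switch on the export of cholesterol and part of fatty acid synthesis. In T cells, activation and division draw on newly made lipid, and resting naive cells make little.

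The values are on a log2 scale on which the 3 WT naive arrays of each gene average 0, and a value gives no absolute level or brightness. A difference of 1 is a doubling. Groups were compared with limma over all 11 arrays, p-values were adjusted over the 20403 symbols, and a gene was called at an adjusted p under 0.05. The p-values measure the spread between these samples. In sorted but bulk RNA, fewer cells of a type and less RNA per cell cannot be told apart.

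The sort was visible in the arrays. Cd44, used for the sort, was 2.81 ± 0.18 (SE) in WM IMP against MW naive, with an adjusted p of 1.06e-06 in limma. Cd3e, of the T cell receptor complex, was 0.11 ± 0.12 (adjusted p = 0.589), and Cd4 was 0.73 ± 0.46 (adjusted p = 0.343). Most marker lists lay higher in the IMP arrays. The mean of 7 genes of MHC class II presentation lay at 2.93 to 3.08 in WM IMP, 2.22 to 2.64 in WT IMP and -1.95 to -0.95 in MW naive. MW naive cells came from MHCII-/- marrow, and H2-Aa, H2-Ab1 and H2-Eb1 lay at -4.64 to -2.44 in them. The other genes of that list lay at 0.48 to 0.68 (H2-DMa), -0.15 to 0.10 (H2-Oa) and -0.99 to 0.31 (Cd74 and Ciita). The part of the genotype in this mean was not tested. The mean of 8 plasmacytoid dendritic cell genes lay at 1.62 to 2.85 in WM IMP, 3.11 to 3.27 in WT IMP and -0.22 to -0.16 in MW naive. The mean of 7 dendritic cell genes lay at 1.56 to 2.79 in WM IMP, 2.54 to 2.61 in WT IMP and -0.11 to 0.11 in MW naive. The mean of 15 macrophage, monocyte and granulocyte genes lay at 0.63 to 1.05 in WM IMP, 1.13 to 1.47 in WT IMP and -0.99 to -0.73 in MW naive. The mean of 21 cell cycle genes lay at 0.31 to 0.50 in WM IMP, 0.91 to 0.99 in WT IMP and -0.30 to -0.18 in MW naive. The mean of 5 NK cell genes lay at 0.13 to 0.71 in WM IMP, 0.87 in both WT IMP arrays and -0.94 to -0.76 in MW naive, and that of 6 plasma cell genes at 0.69 to 0.95 in WM IMP, 0.83 to 1.01 in WT IMP and -0.59 to 0.04 in MW naive. The WT naive arrays lay between -0.47 and 0.46 for these 7 lists. One array stood apart from its group. WM IMP replicate 1 had a mean of 2.62 over 10 B cell genes, against 0.60 and 0.59 in the other WM IMP arrays, and the highest hybridization control level (3.33, against 2.13 and 1.69). The B cell mean lay at -0.58 to 0.21 in WT IMP, -0.73 to 0.10 in MW naive and -0.43 to 0.43 in WT naive. All 3 WM IMP arrays were above those ranges. Of the 10 B cell genes, 4 rose in WM IMP against MW naive, where 7.06% of all symbols did. The poly-A controls were high in 4 arrays, 1 of each group. As the values hold no level, no marker can be called absent. The part of these differences in the results was not tested.

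Of the 15 sterol enzymes, 13 had lower mean values in WM IMP than in MW naive cells, and 5 of them passed the test. A negative difference was found for 11656 of all 20403 symbols in this comparison. No sterol enzyme passed the test in unmanipulated mice, where WT IMP has 2 arrays. The difference between the 2 comparisons was also tested, and no member was called there. In WM IMP against MW naive, 7 of the 34 members fell and 1 rose, where 15.8% of all symbols were called, 8.78% lower and 7.06% higher. Those that fell were Mvk, Idi1, Fdps, Sqle, Lss, Insig1 and Fads1, and the member that rose was Scd2. The median difference of the 34 members was -0.32, against -0.05 for all symbols, and 9 members had a positive difference. In WT IMP against WT naive, 1 member rose, again Scd2, where 8.20% of all symbols were called, 5.41% higher and 2.79% lower. The median of the members was -0.01 there, against -0.02 for all symbols. With an unadjusted p under 0.05 there were 16 members in the chimera comparison and 4 in the other. Of all 20403 symbols, 5757 and 3706 had such a p.

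**Figure D1:**
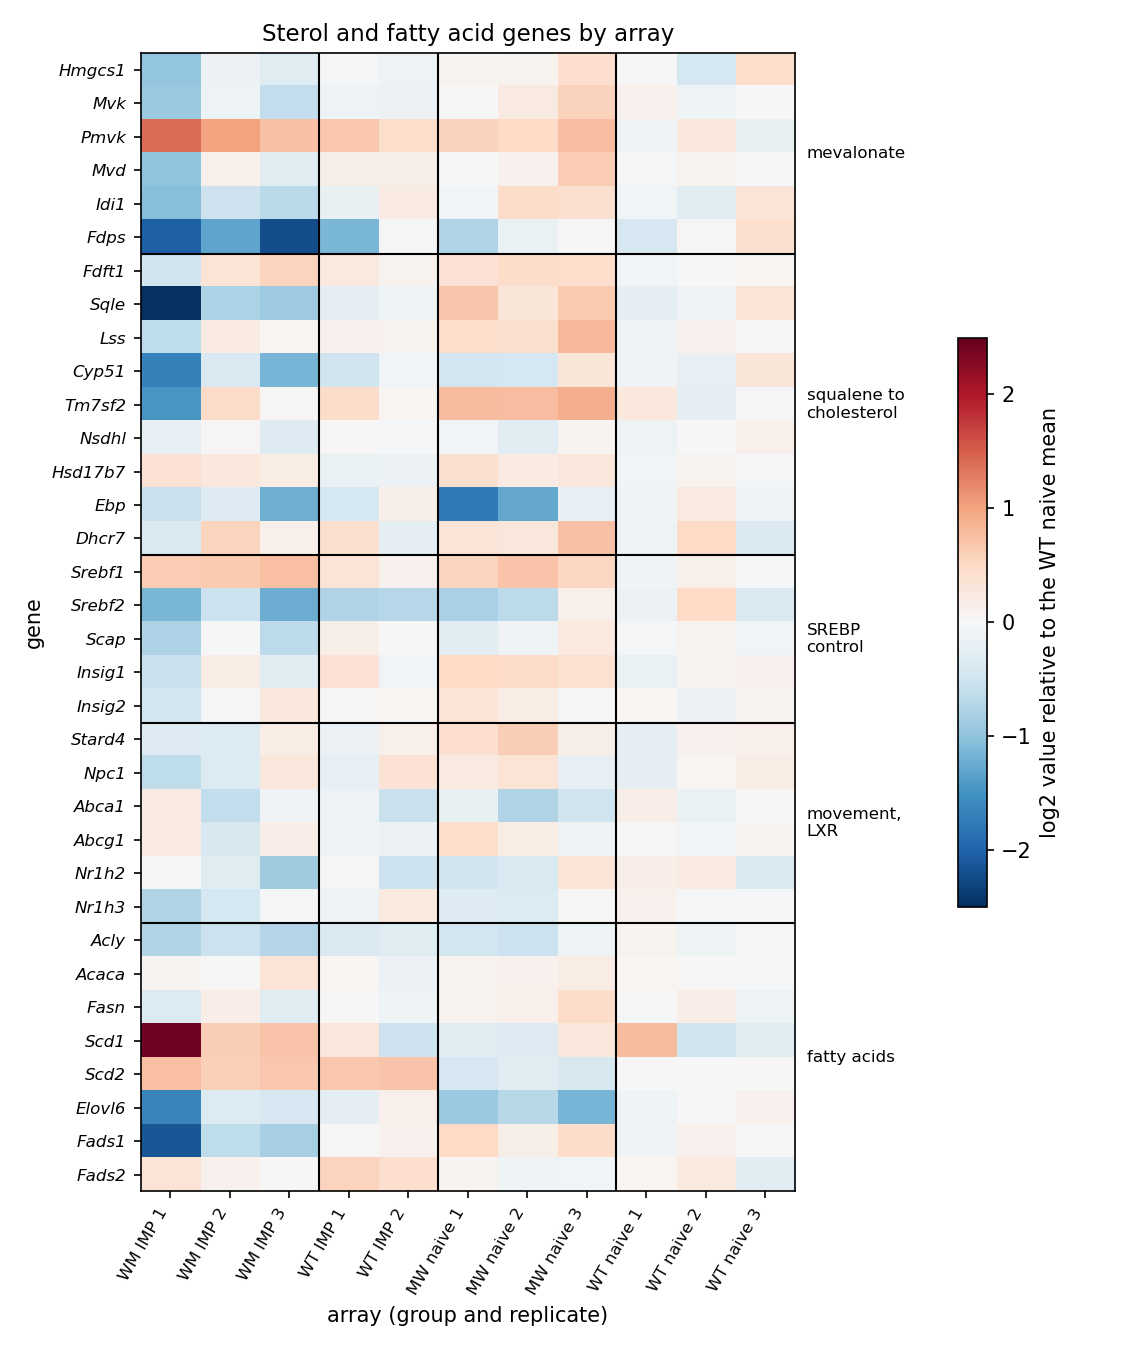
Log2 value relative to the WT naive mean (colour) of the 34 genes (rows, by role) in each of the 11 arrays (columns, by group). Among the sterol enzymes the deepest blue stands in WM IMP replicate 1, where the median of the 15 enzymes was -0.92, while WM IMP replicate 2 holds both colours, with a median of 0.03.

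The array medians of the 15 sterol enzymes from Hmgcs1 to Dhcr7 were -0.92, 0.03 and -0.31 in WM IMP, -0.05 and -0.02 in WT IMP, 0.06, 0.22 and 0.45 in MW naive, and -0.09, 0.00 and 0.01 in WT naive. WM IMP replicate 1, the array with the highest B cell markers, was the lowest of the 11 arrays for 10 of the 15 enzymes and for 19 of the 34 members. MW naive replicate 3 was the highest for 6 of the 15 enzymes and for 9 of the 34 members. Without WM IMP replicate 1, 7 members were called in WM IMP against MW naive, 6 of them among the 8 called with all arrays. The calls of Lss and Insig1 were lost in that fit, and Elovl6 was gained. Without MW naive replicate 2 or 3, 5 members were called, and without WM IMP replicate 2, 13 were. The calls over all symbols moved as well, between 2300 and 3325 when each array was left out in turn. These counts of members are therefore no result about the members by themselves.

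The mevalonate genes gave 3 of the 7 members that fell in WM IMP against MW naive, where 8.78% of all symbols fell. All 6 had an unadjusted p under 0.05, as did 5757 of the 20403 symbols, and 1 of the 6, Pmvk, was higher. The median of the 6 differences was -0.74. Idi1, which interconverts the basic isoprenoid units, had values of -1.06, -0.52 and -0.67 in WM IMP, -0.19 and 0.21 in WT IMP, -0.06, 0.47 and 0.39 in MW naive, and -0.06, -0.26 and 0.32 in WT naive. Every WM IMP array was lower than every other array. Idi1 averaged -0.75 ± 0.28 in WM IMP and 0.26 ± 0.29 in MW naive (SD, n = 3 each), 2.02-fold lower (log2 -1.01 ± 0.21 SE, adjusted p = 0.0071 in limma).

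Fdps makes farnesyl diphosphate, the branch point to sterols, ubiquinone and prenylated proteins. Its values were -2.05, -1.32 and -2.22 in WM IMP, -1.13 and -0.02 in WT IMP, -0.75, -0.17 and 0.00 in MW naive, and -0.43, 0.02 and 0.41 in WT naive. The 3 WM IMP arrays were the lowest of all, and WT IMP replicate 1 was the next. The difference between WM IMP and MW naive was -1.56 ± 0.34 (SE, adjusted p = 0.00894 in limma), or 2.94-fold lower. Between the WT groups it was -0.58 ± 0.38 with an adjusted p of 0.533, and WT IMP replicate 2 lay within the WT naive arrays.

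Mvk, the kinase that acts on mevalonate first, had values of -0.92, -0.13 and -0.61 in WM IMP, -0.12 and -0.15 in WT IMP, -0.02, 0.22 and 0.57 in MW naive, and 0.10, -0.11 and 0.01 in WT naive. Its difference between WM IMP and MW naive was -0.81 ± 0.20 (SE, adjusted p = 0.0184 in limma), and no WM IMP array reached the lowest MW naive array. The call was lost without MW naive replicate 2 or without MW naive replicate 3. Over the 11 fits that each left out 1 array the difference lay between -1.02 and -0.63, with adjusted p of at most 0.069.

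Hmgcs1, which makes the HMG-CoA that feeds the pathway, had values of -0.99, -0.14 and -0.31 in WM IMP, and 0.06, 0.10 and 0.42 in MW naive, a difference of -0.67 ± 0.25 that did not pass the test (adjusted p = 0.0995 in limma). Mvd, the decarboxylase of the pathway, had a difference of -0.65 ± 0.25 (adjusted p = 0.118). In both genes WM IMP replicate 1 was the lowest of the 11 arrays, and the WM IMP and MW naive arrays overlapped for Mvd but not for Hmgcs1. Pmvk, the next kinase after Mvk, was the exception to the direction. Its values were 1.42, 1.01 and 0.74 in WM IMP, 0.68 and 0.44 in WT IMP, 0.58, 0.50 and 0.77 in MW naive, and -0.09, 0.26 and -0.18 in WT naive, and the WT naive arrays were the 3 lowest. Its differences were 0.44 ± 0.19 in WM IMP against MW naive and 0.56 ± 0.21 in WT IMP against WT naive, and neither passed the test (adjusted p = 0.144 and 0.151).

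Promoter windows of 300 bases, most of them before the annotated start, were taken for 25 of the 34 members from RefSeq (GRCm38.p6). They are shown for Hmgcs1 and for 2 of the mevalonate genes that fell, Mvk and Idi1, 5′ to 3′ in the direction of the gene. Capitals mark the sterol regulatory element TCACNCCAC, to which SREBP binds, and the NF-Y box CCAAT, both searched on both strands, and the marked matches do not overlap.
Hmgcs1 promoter, chr13:119690101-119690400, plus strand: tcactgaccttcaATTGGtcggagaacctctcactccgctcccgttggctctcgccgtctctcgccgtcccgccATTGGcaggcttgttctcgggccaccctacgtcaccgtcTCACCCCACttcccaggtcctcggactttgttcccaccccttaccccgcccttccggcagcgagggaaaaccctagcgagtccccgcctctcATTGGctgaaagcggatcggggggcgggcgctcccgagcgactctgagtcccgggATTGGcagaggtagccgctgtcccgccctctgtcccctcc
Mvk promoter, chr5:114444019-114444318, plus strand: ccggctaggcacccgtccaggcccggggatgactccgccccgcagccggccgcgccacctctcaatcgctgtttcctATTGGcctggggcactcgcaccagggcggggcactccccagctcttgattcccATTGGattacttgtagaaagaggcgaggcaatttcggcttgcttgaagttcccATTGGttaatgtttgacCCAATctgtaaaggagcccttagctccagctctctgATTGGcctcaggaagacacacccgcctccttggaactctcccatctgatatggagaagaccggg
Idi1 promoter, chr13:8885356-8885655, plus strand: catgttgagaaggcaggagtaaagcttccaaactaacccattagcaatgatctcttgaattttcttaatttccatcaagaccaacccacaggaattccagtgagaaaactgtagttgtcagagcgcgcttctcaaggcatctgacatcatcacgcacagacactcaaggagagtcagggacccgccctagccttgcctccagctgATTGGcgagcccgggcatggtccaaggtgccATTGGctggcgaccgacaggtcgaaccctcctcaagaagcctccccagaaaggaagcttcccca
Some genes had several windows, and a gene was counted if any of its windows held the motif, among members and all genes alike. The sterol regulatory element in this spelling was in 1 of the 25 members, Hmgcs1 (4%), and in 1.44% of 27025 genes with a promoter. The NF-Y box was in 18 of the 25 (72%) and in 41.1% of all genes. The Sp1 box GGGCGG was in 19 of the 25 (76%) and in 38.2% of all genes. The E box CACGTG was in 5 (20%) against 8.09% of all, and the LXR element of the DR4 form was in none of the 25 and in 0.27% of all. Of the 7 members that fell, Mvk, Idi1, Lss and Insig1 had a promoter in the table, and all 4 held both the NF-Y box and the Sp1 box. These matches describe letters in a short window and are not binding sites.

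Of the 9 enzymes from squalene to cholesterol, Sqle and Lss fell in WM IMP against MW naive and the other 7 were not called. The share of all symbols that fell there was 8.78%, and a count this small is no result about the list. Sqle, squalene epoxidase, a rate-limiting step of the sterol branch, had values of -2.46, -0.79 and -0.90 in WM IMP, -0.24 and -0.10 in WT IMP, 0.70, 0.31 and 0.66 in MW naive, and -0.24, -0.09 and 0.33 in WT naive. The 3 WM IMP arrays lay below all others and the 3 MW naive arrays overlapped WT naive only at its highest array. Sqle averaged -1.38 ± 0.94 in WM IMP and 0.56 ± 0.22 in MW naive (SD, n = 3 each), 3.83-fold lower (log2 -1.94 ± 0.36 SE, adjusted p = 0.00378 in limma). This was the greatest fall among the 34 members. In the 11 fits that each left out 1 array it lay between -2.24 and -1.40 and stayed called. Between WT IMP and WT naive it was -0.17 ± 0.41 (adjusted p = 0.949).

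Lss, which closes the rings of lanosterol, had values of -0.63, 0.21 and 0.05 in WM IMP, 0.10 and 0.10 in WT IMP, 0.44, 0.41 and 0.80 in MW naive, and -0.13, 0.12 and 0.01 in WT naive. The WM IMP and MW naive arrays did not overlap, but the MW naive arrays were also above all WT naive arrays. Its difference of -0.67 ± 0.20 (SE, adjusted p = 0.0464 in limma) was close to the threshold. The call was kept in only 1 of the 11 fits that each left out 1 array, that without WM IMP replicate 2, and the difference lay between -0.84 and -0.42.

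Tm7sf2, a sterol reductase, had values of -1.45, 0.48 and 0.04 in WM IMP, 0.46 and 0.05 in WT IMP, 0.78, 0.77 and 0.90 in MW naive, and 0.27, -0.25 and -0.03 in WT naive. WM IMP replicate 1 was far below the other 2 arrays of its group, and the difference of -1.13 ± 0.38 did not pass the test (adjusted p = 0.0715 in limma). Cyp51, which demethylates lanosterol, had values of -1.69, -0.37 and -1.17 in WM IMP, and -0.47, -0.44 and 0.31 in MW naive, with a difference of -0.88 ± 0.32 (adjusted p = 0.0909). Both were called without WM IMP replicate 2. The other uncalled enzymes had smaller differences, -0.29 for Fdft1 (squalene synthase), -0.36 for Dhcr7 (a last step to cholesterol), -0.08 for Nsdhl and -0.02 for Hsd17b7 (both in the removal of methyl groups). Ebp, a sterol isomerase, was at -0.55, -0.33 and -1.23 in WM IMP, and -1.77, -1.27 and -0.20 in MW naive, and its MW naive arrays spread more widely than the difference between the groups (0.38 ± 0.36).

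**Figure D2:**
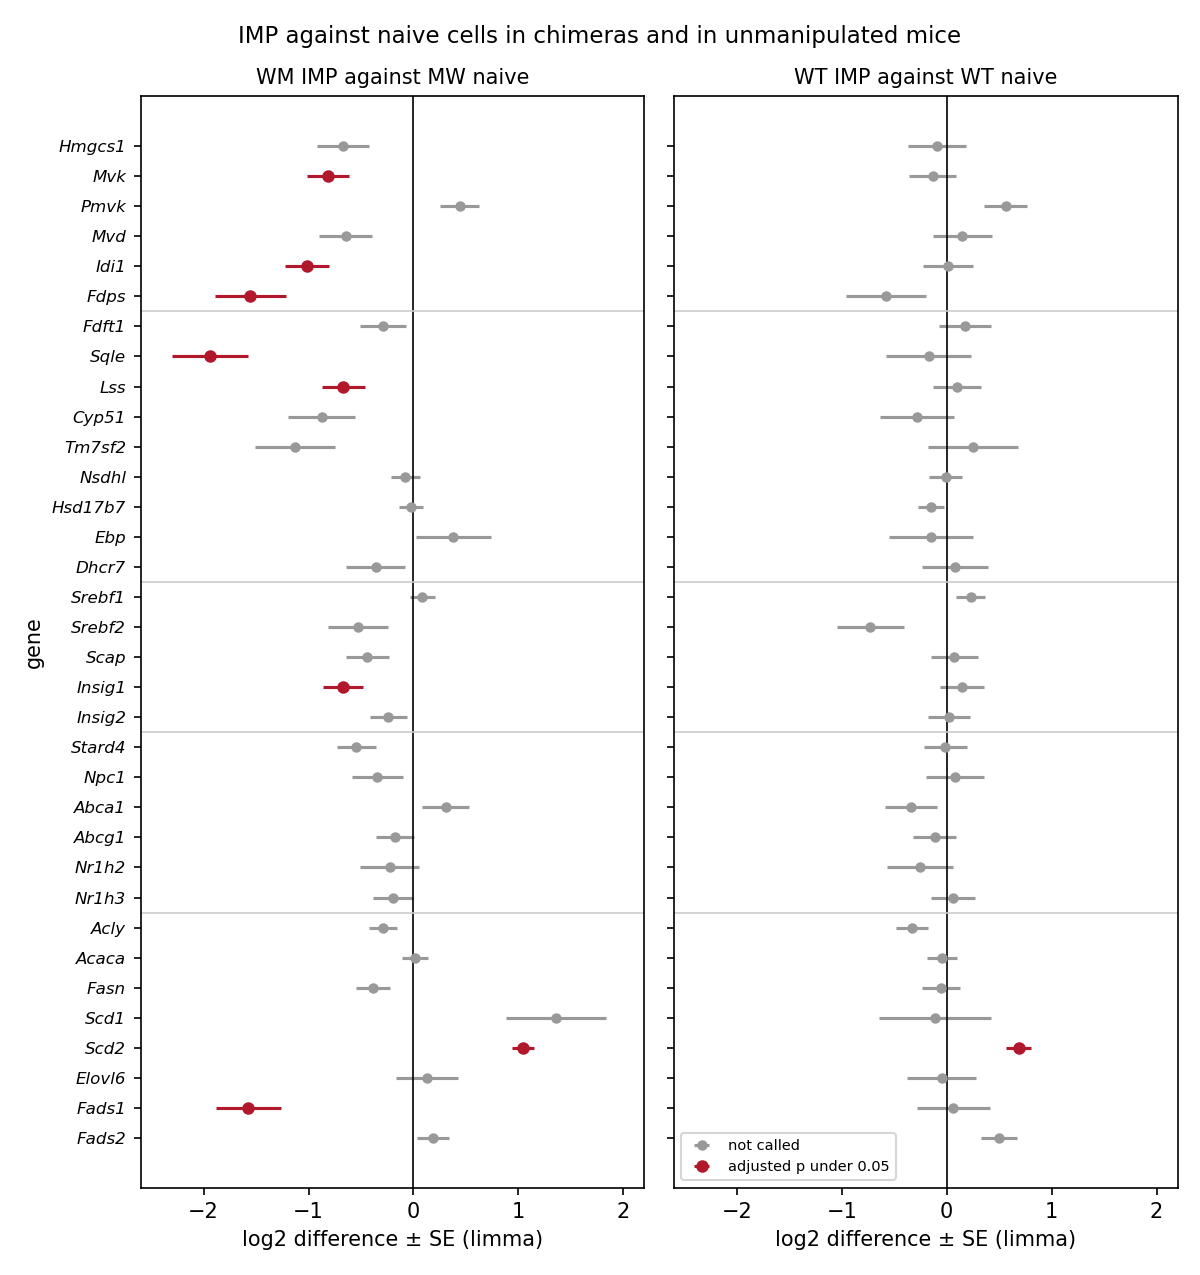
Log2 difference ± SE from limma for the 34 genes (rows, by role) in WM IMP against MW naive (left) and WT IMP against WT naive (right), with called genes in red. The left panel has 7 called genes below 0 and 1 above, and the right panel has Scd2 alone.

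Among SREBP factors and their regulators, Insig1 fell in WM IMP against MW naive, where 8.78% of all symbols fell, and the other 4 were not called. Insig1, itself a target of SREBP, had values of -0.57, 0.18 and -0.28 in WM IMP, 0.36 and -0.08 in WT IMP, 0.49, 0.47 and 0.37 in MW naive, and -0.17, 0.07 and 0.10 in WT naive. The WM IMP arrays were all lower than the MW naive arrays but spanned the WT naive arrays. The difference was -0.67 ± 0.19 (SE, adjusted p = 0.0334 in limma), and the call was lost when WM IMP replicate 1 or 3, or any MW naive array, was left out, with adjusted p of up to 0.0946. Insig2, its relative, was at -0.24 ± 0.18 (adjusted p = 0.436).

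Srebf1, which encodes SREBP-1, the factor of fatty acid synthesis, was called between the naive groups and in no comparison of IMP with naive cells. Its values were 0.64, 0.66 and 0.75 in WM IMP, 0.34 and 0.11 in WT IMP, 0.57, 0.72 and 0.51 in MW naive, and -0.08, 0.12 and -0.04 in WT naive. All arrays of both chimera groups were above all arrays of both unmanipulated groups. It was called in MW naive against WT naive (0.60 ± 0.12 SE, adjusted p = 0.0247 in limma), where 1.28% of all symbols rose, and it was the 1 member called there. The call was kept in 6 of the 11 fits that each left out 1 array. It was lost without any of the WT naive arrays and without MW naive replicate 1 or 2, with adjusted p of up to 0.117. Between the 2 chimera groups it was 0.09 ± 0.12 (adjusted p = 0.702). Whether the difference by origin exceeds the difference by phenotype was not tested.

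Srebf2, which encodes SREBP-2, the factor of sterol synthesis, had values of -1.14, -0.54 and -1.25 in WM IMP, -0.74 and -0.71 in WT IMP, -0.81, -0.66 and 0.12 in MW naive, and -0.14, 0.50 and -0.36 in WT naive. WT IMP lay below WT naive in every array, but the naive groups were widely spread. The differences were -0.73 ± 0.32 in WT IMP against WT naive and -0.53 ± 0.29 in WM IMP against MW naive, with adjusted p of 0.252 and 0.265 in limma. Scap, which carries SREBP to the Golgi, was at -0.44 ± 0.20 in WM IMP against MW naive (adjusted p = 0.184). Of 13 other genes of SREBP processing and sterol-sensing degradation, 1 rose and 1 fell in each of the comparisons of IMP with naive cells. That is 7.69% each way, against 7.06% higher and 8.78% lower of all symbols in WM IMP against MW naive and 5.41% higher and 2.79% lower in WT IMP against WT naive, and is no result about the list. Erlin1, which takes part in the degradation of sterol-sensing proteins, rose in both, by 0.79 ± 0.13 in WM IMP against MW naive and by 0.70 ± 0.15 in WT IMP against WT naive (adjusted p = 0.00164 and 0.0114 in limma). Rnf145, a ubiquitin ligase, was -0.90 in WT IMP against WT naive and -1.05 in MW naive against WT naive (adjusted p = 0.00328 and 0.00351), and those comparisons share the WT naive arrays.

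None of the 6 genes of sterol movement, export and LXR was called in any comparison of the main fit. The closest was Stard4, which carries sterol between membranes, with -0.32, -0.34 and 0.19 in WM IMP, and 0.42, 0.61 and 0.14 in MW naive, and a difference of -0.55 ± 0.19 (adjusted p = 0.0736 in limma). Npc1, which lets cholesterol out of lysosomes, was at -0.34 ± 0.25 with overlapping groups. The exporters Abca1 and Abcg1 were at 0.31 ± 0.22 and -0.18 ± 0.18, and the receptors Nr1h2 (LXR beta) and Nr1h3 (LXR alpha) at -0.22 ± 0.28 and -0.20 ± 0.19, all with adjusted p of at least 0.413. The 6 differences between WT IMP and WT naive ran from -0.34 (Abca1) to 0.08 (Npc1).

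Genes around the LXR receptors were called in both directions. Of 13 LXR partners and targets, 2 rose and 2 fell in WM IMP against MW naive, and 1 rose and 1 fell in WT IMP against WT naive. All symbols were called at 7.06% higher and 8.78% lower in the chimera comparison and at 5.41% higher and 2.79% lower in the other, and counts this small are no result about the list. Pltp, a phospholipid transfer protein, rose by 2.75 ± 0.26 and 3.32 ± 0.29 (SE), with adjusted p of 2.06e-05 and 2.53e-05 in limma. Arl4c, a small GTPase and LXR target, fell by 1.21 ± 0.17 and 1.46 ± 0.19. Of 19 genes of sterol storage, trafficking and oxysterols, 5 rose and 5 fell in WM IMP against MW naive and 4 rose and 4 fell in WT IMP against WT naive, which is 26.3% each way in chimeras and 21.1% each way in unmanipulated mice, against the same shares of all symbols. Cyp27a1, an oxysterol-making enzyme of mitochondria, rose by 3.42 ± 0.14 and 2.77 ± 0.16, and Npc2, the lysosomal partner of Npc1, fell by 1.03 ± 0.12 and 1.02 ± 0.13. Macrophages are known to express Pltp and Cyp27a1. Of the 15 macrophage, monocyte and granulocyte genes, 6 rose in WM IMP against MW naive and 8 rose in WT IMP against WT naive, and their part in these values was not tested. Soat2, which esterifies cholesterol, rose by 3.14 ± 0.38 in WT IMP against WT naive and was -1.81 in WM IMP against WT IMP (adjusted p = 0.0405).

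Fatty acid genes held both the member that rose in IMP cells, Scd2, and one of the greatest falls, Fads1. Scd2, a stearoyl-CoA desaturase that makes monounsaturated fatty acids, had values of 0.76, 0.60 and 0.66 in WM IMP, 0.67 and 0.70 in WT IMP, -0.42, -0.29 and -0.40 in MW naive, and 0.01, 0.00 and -0.01 in WT naive. All 5 IMP arrays lay between 0.60 and 0.76, above every naive array, and MW naive lay below WT naive. Scd2 averaged 0.67 ± 0.08 in WM IMP and -0.37 ± 0.07 in MW naive (SD, n = 3 each), 2.06-fold higher (log2 1.04 ± 0.11 SE, adjusted p = 4.35e-05 in limma). It averaged 0.69 ± 0.02 in WT IMP (n = 2) and 0.00 ± 0.01 in WT naive (n = 3), 1.61-fold higher (log2 0.69 ± 0.12, adjusted p = 0.00357). Both calls were kept whichever array was left out.

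The second deposited table, in which each probe set stands alone, gave a divided picture of Scd2. Its 3 probe sets differed by 0.97, 0.28 and 1.22 in WM IMP against MW naive. In WT IMP against WT naive they differed by 0.71, -0.09 and -0.01, so that 1 of 3 carried the rise. The mean of the 3 was 0.20 there, with an adjusted p of 0.671 in limma, and the call was lost.

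Scd1, the related desaturase and a target of LXR and SREBP-1, had values of 2.43, 0.61 and 0.72 in WM IMP, 0.29 and -0.52 in WT IMP, -0.28, -0.32 and 0.28 in MW naive, and 0.79, -0.50 and -0.30 in WT naive. WM IMP replicate 1 was far above all other arrays, and the difference of 1.36 ± 0.48 did not pass the test (adjusted p = 0.0826 in limma). Fads1, a front-end desaturase of polyunsaturated fatty acids, went the other way. Its values were -2.14, -0.64 and -0.83 in WM IMP, 0.03 and 0.10 in WT IMP, 0.50, 0.14 and 0.47 in MW naive, and -0.09, 0.11 and -0.02 in WT naive. The 3 WM IMP arrays were the lowest of all, replicate 1 by a wide margin. The fall was 2.98-fold (log2 -1.57 ± 0.31 SE, adjusted p = 0.00512 in limma), lay between -1.85 and -1.10 when each array was left out in turn, and stayed called. Between WT IMP and WT naive the difference was 0.06 ± 0.35 (adjusted p = 0.982).

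Fads2, the partner desaturase of Fads1, was above every WT naive array in both WT IMP arrays, 0.57 and 0.43 in WT IMP, and 0.04, 0.24 and -0.28 in WT naive, with a difference of 0.50 ± 0.17 that did not pass the test (adjusted p = 0.122 in limma). Elovl6, an elongase, had values of -1.64, -0.34 and -0.42 in WM IMP, -0.23 and 0.14 in WT IMP, -0.93, -0.70 and -1.16 in MW naive, and -0.10, -0.02 and 0.12 in WT naive. All 6 chimera arrays were below all 5 arrays of unmanipulated mice. Its difference between MW naive and WT naive was -0.93 ± 0.29 (adjusted p = 0.125). The core enzymes of fatty acid synthesis were not called in any of the comparisons of the main fit. Acly, which makes cytosolic acetyl-CoA, was at -0.29 ± 0.14 in WM IMP against MW naive and -0.33 ± 0.15 in WT IMP against WT naive. In the same order, Acaca (acetyl-CoA carboxylase) was at 0.01 ± 0.12 and -0.05 ± 0.14, and Fasn (fatty acid synthase) at -0.39 ± 0.16 and -0.06 ± 0.18. The 6 probe sets of Acly were divided in MW naive against WT naive, at -2.02, -1.05 and, for the rest, 0.03 to 0.27. Acly was called there with single probe sets or array weights, and with array weights in WT IMP against WT naive.

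**Figure D3:**
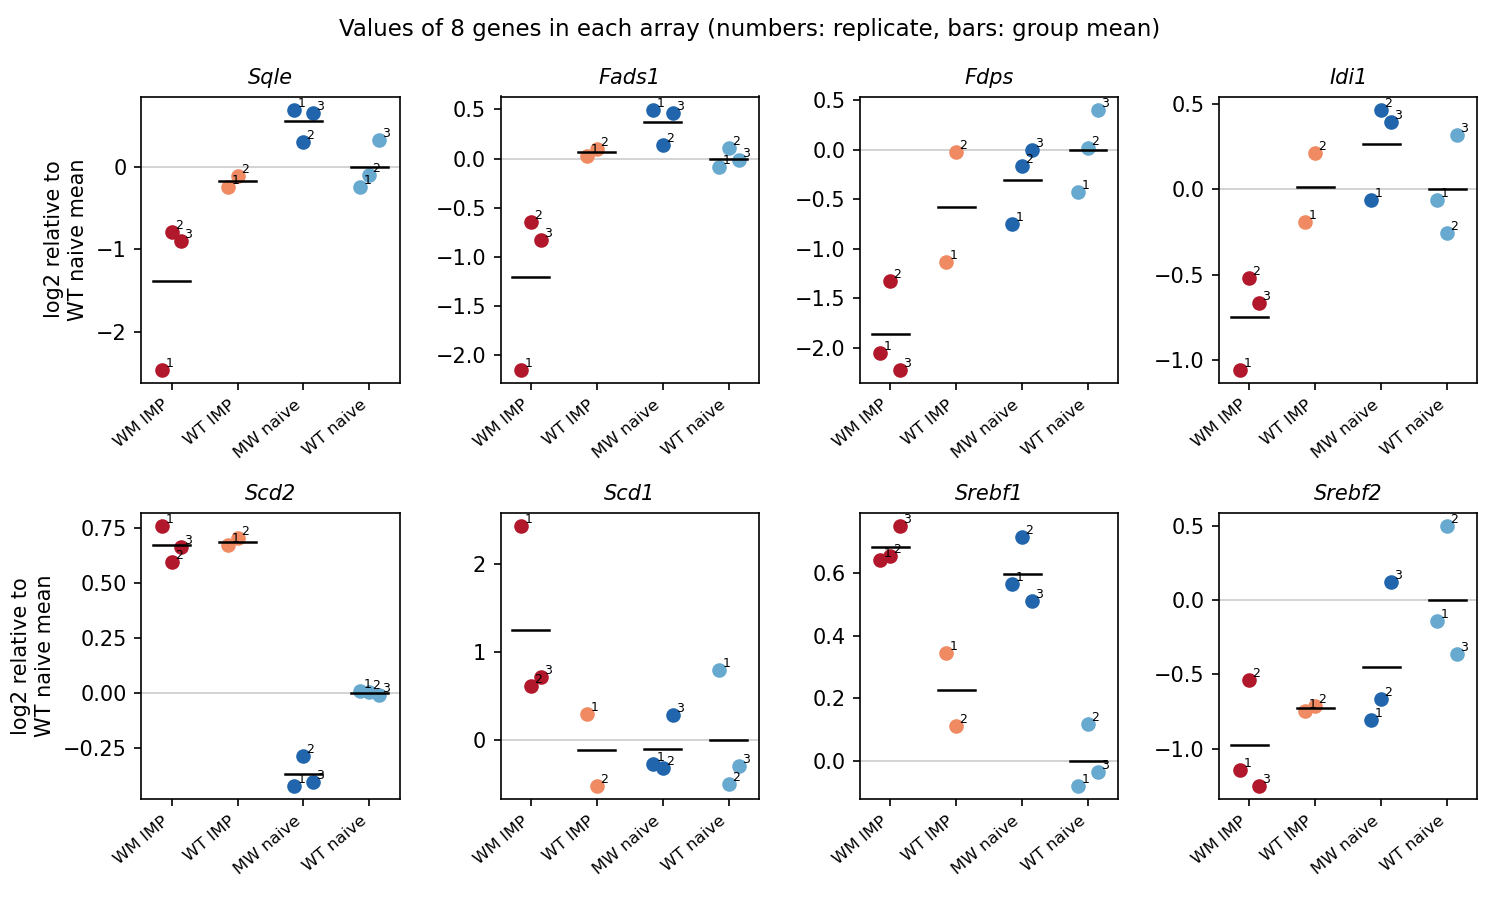
Log2 value relative to the WT naive mean (y axis, scaled per gene) of 8 genes in each array, with points numbered by replicate and bars at the group mean. WM IMP lies below the other groups in Sqle, Fads1, Fdps and Idi1, Scd2 separates all IMP from all naive arrays, and Srebf1 separates the chimera groups from the unmanipulated groups.

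Other lists of the same pathways gave these counts in WM IMP against MW naive. Of 14 genes of the isoprenoid branches, 3 fell, Fntb (a subunit of farnesyltransferase, -1.21 ± 0.19), Pdss1 (of ubiquinone side chain synthesis, -1.19 ± 0.29) and Rabggtb (of Rab prenylation, -0.61 ± 0.16). Fntb also fell in WT IMP against WT naive (-0.99 ± 0.21), the 1 called there. The 3 that fell in WM IMP against MW naive are 21.4% of the list, where 8.78% of all symbols fell. Counts this small are no result about the list.

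Of 22 further genes of fatty acid synthesis, elongation and activation, 3 rose and 4 fell in WM IMP against MW naive, and 4 fell and none rose in WT IMP against WT naive. Acss2, which makes acetyl-CoA from acetate and is a target of SREBP, fell by 1.51 ± 0.19 in WM IMP and by 0.86 ± 0.21 in WT IMP, each against its naive group. Acsl3, an acyl-CoA synthetase, fell by 1.42 ± 0.16 and 1.14 ± 0.18 (all adjusted p of at most 0.0283 in limma). The elongases Elovl5 and Elovl7 fell by 1.08 ± 0.18 and 1.04 ± 0.15 in WT IMP against WT naive. Both were also lower in MW naive against WT naive (-0.91 and -0.72, adjusted p = 0.0173 and 0.0205 in limma). Those comparisons share the WT naive arrays. Of 18 genes of fatty acid oxidation, 2 rose and 2 fell in WM IMP against MW naive, and Acadm, a mitochondrial dehydrogenase of medium-chain acids, was the 1 called in WT IMP against WT naive (-0.90 ± 0.19). Of all symbols, 7.06% were called higher and 8.78% lower in WM IMP against MW naive, and 5.41% higher and 2.79% lower in WT IMP against WT naive. A single call among 14 or 18 genes is no result about the list.

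The difference between the comparisons, that is, IMP against naive in chimeras minus IMP against naive in unmanipulated mice, was tested as an interaction. None of the 34 members was called in limma, and 0.118% of all symbols were called (0.0735% higher and 0.0441% lower). An unadjusted p under 0.05 was found for 8 members and for 1675 of the 20403 symbols. Fads1 had the smallest adjusted p, with -1.64 ± 0.47 (SE, adjusted p = 0.327). Sqle was at -1.77 ± 0.55 and Idi1 at -1.02 ± 0.32, each with an adjusted p of 0.379. The falls in chimeras are therefore not shown to differ from the values in unmanipulated mice, and the WT IMP group has only 2 arrays. The 6 mevalonate genes all had negative interaction values, with a median of -0.74, against -0.04 for all symbols. Of the 20403 symbols, 11224 had a negative value.

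The naive groups were compared on their own, since MW naive is the baseline of the chimera comparison. In MW naive against WT naive, Srebf1 alone was called, where 3.08% of all symbols were (1.28% higher and 1.79% lower), and the median member differed by 0.16, against 0.00 for all symbols. Arrays of the groups did not overlap for 10 members above WT naive, where 12.2% of all symbols did so, and for 5 members below, where 14% did. The 10 were Pmvk, Fdft1, Lss, Tm7sf2, Hsd17b7, Srebf1, Insig1, Stard4, Acaca and Fads1, and the 5 were Ebp, Abca1, Acly, Scd2 and Elovl6. Lss and Insig1, both among the members that fell in WM IMP against MW naive, were at 0.55 ± 0.20 and 0.45 ± 0.19 in MW naive against WT naive, with adjusted p of 0.193 and 0.26 in limma, and these comparisons share the MW naive arrays. Without WM IMP replicate 1 in the shared fit, 6 members were called, and with MW naive replicate 3 left out 2 were. No member was called without any of the WT naive arrays or without MW naive replicate 1 or 2. The calls over all symbols moved as well, between 124 and 1184 when each array was left out in turn.

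The IMP groups were compared in the same way. In WM IMP against WT IMP no member was called in limma, where 1.80% of all symbols were. An unadjusted p under 0.05 was found for 13 members and for 3324 of the 20403 symbols. The median member was at -0.28, against -0.04 for all symbols. Fads1 (-1.27 ± 0.35 SE, adjusted p = 0.0936), Fdps (-1.28 ± 0.38, 0.116), Sqle (-1.21 ± 0.41, 0.165) and Idi1 (-0.76 ± 0.24, 0.135) had the greatest negative values among the 9 members whose WM IMP arrays were all below those of WT IMP. The share of all symbols with such arrays was 19.3%. In the other direction there were 4 members (Pmvk, Hsd17b7, Srebf1 and Scd1), where 11.6% of all symbols were. Scd2 was at -0.01 ± 0.12 (SE). Its 3 probe sets in the second table were divided here too, at -0.24, 0.23 and 1.12. Without WM IMP replicate 1, Fads1 was called, and without WM IMP replicate 2, Fads1, Fdps and Scap were. The calls over all symbols also changed with the array left out.

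Arrays that did not overlap were also counted in the main comparisons. All WM IMP arrays were below all MW naive arrays for 9 members, where 17.5% of all symbols were, and above for 2 (Scd1 and Scd2), where 11.6% were. The 9 were the 7 that fell, with Hmgcs1 and Tm7sf2. In WT IMP against WT naive there were 5 above (Pmvk, Mvd, Fdft1, Scd2 and Fads2) and 5 below (Mvk, Hsd17b7, Srebf2, Abcg1 and Acly), where 19.0% and 21.9% of all symbols were. With 2 arrays against 3, such separation is common among all symbols.

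The 34 members were measured by 75 probe sets, 11 members by 1 probe set each. For the members that fell in WM IMP against MW naive, the single probe sets did not always move together in the second table. Fdps had one probe set at -1.63 and another at 0.24. Lss had -0.88 and 0.06, Mvk -0.89 and -0.20, and Fads1 -1.75 and -0.51. Those of Idi1 lay close together, at -0.96 and -1.12. Sqle and Insig1 had 1 probe set each, at -1.99 and -0.77. With probe sets averaged per gene, the second table kept the calls of Idi1, Sqle, Insig1, Fads1 and Scd2 and lost those of Fdps, Lss and Mvk.

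**Figure D4:**
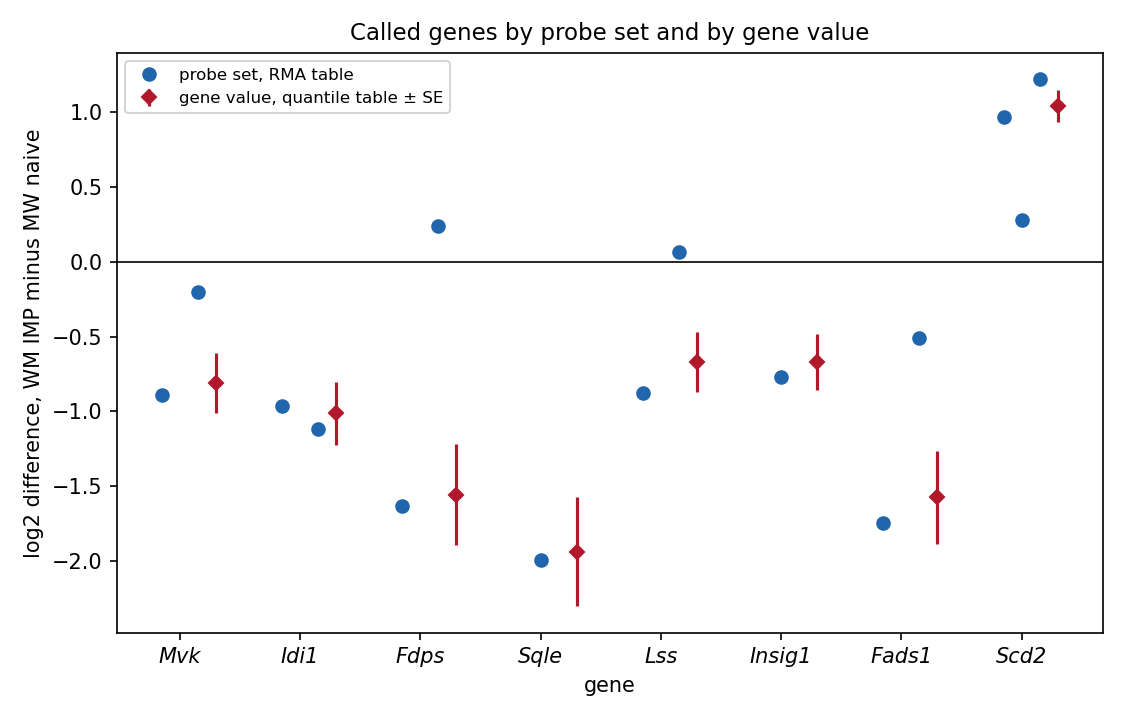
Log2 difference between WM IMP and MW naive (y axis) for the 8 called genes, by single probe set of the second table (circles) and by the gene value ± SE of the main table (diamonds). The probe sets of Fdps and Lss lie on both sides of 0, and those of the other genes lie on the side of the gene value.

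Technical measures moved with part of these results. Hybridization controls, spiked in after labelling, were higher in the WM IMP arrays (3.33, 2.13 and 1.69) than in the MW naive arrays (1.05, 1.10 and 1.48). With their level as a covariate, chosen after the data were seen, only Scd2 stayed called, and Sqle was at -1.04 with an adjusted p of 0.0832 in limma. The covariate separates these groups, so its part and that of the group cannot be told apart. The 5′ minus 3′ difference of Gapdh, a sign of transcript length in the labelled RNA, was 0.56, -2.71 and -1.69 in WM IMP and -4.22, -3.50 and -1.38 in MW naive, and with it as a covariate Idi1, Fdps, Sqle, Fads1 and Scd2 stayed called. Between the WM IMP and the MW naive array with high poly-A controls, the difference was -1.45 for Sqle, -1.11 for Fads1, -1.32 for Fdps, -0.91 for Idi1, -0.70 for Mvk, -0.59 for Lss, -0.20 for Insig1 and 1.0 for Scd2. Among the other arrays of the same groups the differences were -2.18, -1.81, -1.68, -1.06, -0.87, -0.71, -0.90 and 1.07 in the same order of genes. All 8 kept their direction in both sets of arrays.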

How the data were processed

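RNA of sorted CD4 T cells (30 ng per sample, sort purity of 92% to 99% per the labels) was measured on 11 single-colour arrays. The authors deposited log2 values relative to the WT naive mean in 2 tables, 27800 genes with quantile normalization per the file header and 45101 probe sets made with RMA per the submitters' processing notes. No source names the base of the logarithm, which was taken as 2. The gene table was the main source. Of its rows, 20404 had 1 symbol and gave 20403 symbols, while 5684 without a symbol and 1712 with several were left out.

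A model with the 4 labelled groups was fitted with limma 3.58.1 in R 4.3.3 (lmFit, eBayes) and tested on simulated data. Adjusted p-values are by Benjamini-Hochberg over all symbols of a comparison, with a threshold of 0.05. Members, gene lists and comparisons were chosen with earlier results of these data known. Named genes were all members and, of each pathway list, up to 4 called genes with the greatest difference, not all of which are printed, and results on some listed genes are not reported here. No file gives signal over background, and precision is limited by how few arrays each group has. Alternatives were the other table, array weights, centring, blocks, fits to fewer arrays, and, chosen after the data were seen, single probe sets and technical covariates. Tables and figures used Python 3.11.15, numpy 2.4.6, pandas 2.3.3 and matplotlib 3.10.9.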

Additional observations from a re-analysis of the deposited data

Results flagged for a closer look

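The row with the gene ID of Acat2, under the symbol joined for Acat2 and Acat3, stood outside the comparisons. This row had values of 0.71, 0.55 and 0.44 in WM IMP, 0.01 and -0.37 in WT IMP, 0.75, 0.70 and 0.90 in MW naive, and 0.11, 0.07 and -0.18 in WT naive. It was listed here because a signal lay above the level of the WT naive arrays in data that no comparison used. The lowest MW naive array was 0.595 above the highest WT naive array, and the lowest WM IMP array was 0.334 above it. Acat2 is the cytosolic thiolase that makes acetoacetyl-CoA, and 1 of the 2 probe sets of the row also serves Acat3, so the row is not of Acat2 alone. A second row under the same joined symbol has the gene ID of Acat3 and rests on that shared probe set. It had values of 0.77, 0.26 and 0.08 in WM IMP, -0.15 and -0.30 in WT IMP, -0.01, -0.05 and 0.52 in MW naive, and 0.34, -0.39 and 0.05 in WT naive, and its MW naive arrays overlapped those of WT naive. The difference was not tested.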

How the results depend on the processing

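Scd2 in WM IMP against MW naive kept its call in 25 of 25 alternatives, and no called difference changed its direction in these alternatives. Single probe sets did lie on the other side of 0, 1 of 2 for Fdps and for Lss in that comparison and 2 of 3 for Scd2 in WT IMP against WT naive. Differences that were not called could change sign between arrays with and without high poly-A controls, such as Abca1 in WM IMP against MW naive (-0.12 with and 0.52 without). The count of members called moved with the setting. In WM IMP against MW naive (8 called) it was 5 in the RMA table, 5 with only these groups fitted, 5 at an adjusted p under 0.01, 5 with the Gapdh covariate, 1 with the hybridization covariate and 4 in the RMA table without WM IMP replicate 1. In MW naive against WT naive (1 called) it was 10 with array weights, 3 with only these groups fitted, 3 with the hybridization covariate, 3 in the RMA table without WM IMP replicate 1, and 0 in the RMA table, at an adjusted p under 0.01, with the Gapdh covariate and in the 7 arrays with low poly-A controls. In WT IMP against WT naive (1 called) it was 4 with array weights and 0 in the RMA table and in those 7 arrays. In WM IMP against WT IMP (0 called) it was 1 with array weights. These counts stand without the share of all symbols called in the same setting, which can move too, and are no result about the members. The causes were not tested. Leaving out each array gave 5 to 13, 0 to 6, 1 to 1 and 0 to 3 in the same order, and 0 for the interaction. Deviations from the group means correlated at -0.287 to 0.175 between arrays of the same replicate number and at -0.235 to 0.256 between arrays of different numbers. Within groups of 2 or 3 arrays such deviations depend on each other. These values therefore cannot decide whether replicate numbers pair the samples. With the replicate block, the members called were 8 in WM IMP against MW naive (7 shared, Insig1 lost, Scd1 gained), 1 in WT IMP against WT naive and 0 in MW naive against WT naive.

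Over all symbols, leaving out each array gave 2300 to 3325 calls in WM IMP against MW naive, 124 to 1184 in MW naive against WT naive, 790 to 2254 in WT IMP against WT naive, 19 to 909 in WM IMP against WT IMP and 8 to 96 for the interaction. A filter on dim genes was not run, since the values hold no level or detection call, and the interaction has no fit to fewer groups.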
